A study of Homo sapiens with 2 samples.

Results

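The genes described here encode splicing factors and heterogeneous nuclear ribonucleoproteins (hnRNPs). They were selected by symbol: every gene whose symbol begins with SF3A, SF3B, SNRP, PRPF, SRSF or HNRNP, together with U2AF1, U2AF2, U2SURP, BCLAF1, TRA2A, TRA2B and SON, provided that an array probe set carries that symbol and no other. This gave 63 genes of 11963 in the whole data set. Their RNA levels were compared between H6c7-Kr and H6c7 with 1 Affymetrix array (human genome U133 set, array A) per line. H6c7 is a near-normal epithelial line from human pancreatic duct, immortalised with papillomavirus E6 and E7 genes, and H6c7-Kr is the same line after a K-ras oncogene was introduced into it. Both lines thus carry the immortalising genes. The labels give no oncogene allele, delivery vector or time after introduction, do not say whether H6c7-Kr is a pool or 1 clone, and name no vector control. The level of the K-ras transcript itself was not analysed here.

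Introns are removed from pre-mRNA by the spliceosome, which is built from small nuclear ribonucleoproteins (snRNPs). Most of these are a small RNA held by a ring of Sm proteins with additional particle-specific proteins. SR proteins, named for stretches of alternating arginine and serine, bind exons and recruit the snRNPs. The hnRNPs coat nascent transcripts and often oppose SR proteins in the choice of splice sites, though members of both families do either depending on position. SR and hnRNP genes are also known to control their own mRNAs through exons that lead to nonsense-mediated decay.

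With 1 array per line there is no replicate error to set against a ratio, and no ratio below carries a test. Ratios are H6c7-Kr over H6c7. A signal floor of 46.9 was set at the higher of the array medians. A gene under the floor in both lines was called not measured. For a gene under it in 1 line, the floor took the place of that signal and the ratio is a bound. Genes and probe sets at or over the floor in H6c7-Kr and in H6c7 are called detected in both lines. A gene was counted as lower or higher when its ratio reached 2-fold. The arrays had median signals of 46.9 in H6c7-Kr and 43.9 in H6c7. The ratio of 3′ to 5′ control signal, a measure of RNA integrity, was 0.888 in H6c7-Kr and 0.817 in H6c7 for GAPDH, and 1.10 in H6c7-Kr and 1.28 in H6c7 for ACTB. Of 9 pancreatic duct markers, 8 were at or above the floor in H6c7-Kr and 7 in H6c7, with CFTR below it on both arrays. Of 19 markers of fibroblasts, leukocytes, endothelium, acinar and neuroendocrine cells, 6 were at or above it in H6c7-Kr and 2 in H6c7. The summed signal of these 19 was 636 in H6c7-Kr and 433 in H6c7, against 16993 in H6c7-Kr and 18249 in H6c7 for the duct markers. LUM was the nearest to 0 among them, with signals of 0.20 in H6c7-Kr and 0.30 in H6c7, and the part of these markers in the results was not tested. Since each array measured RNA of a whole culture, fewer cells of a type and less RNA per cell cannot be told apart.

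Splicing genes were more often lower than higher in H6c7-Kr. Of the 63 members, 61 were measured, 58 of them detected in both lines and 3 as bounds. At least 2-fold lower were 18 members (29.5%), against 14.4% of the 7693 measured genes. At least 2-fold higher were 3 members (4.92%), against 9.97% of all measured genes. When the arrays were scaled on 100 maintenance probe sets instead, 11 members were lower and 4 higher, against 11.1% and 14.4% of all measured genes. The median log2 ratio of the 61 members was -0.52, against 0.10 for all measured genes. Among the 58 members detected in both lines, 44 (75.9%) had a ratio below 1, against 45.4% of 5996 genes so detected. At a threshold of 3-fold, 6 members were lower (6.24% of all measured genes were) and 0 were higher (2.40% of all). Not measured were PRPF39, with signals of 10.8 in H6c7-Kr and 46.6 in H6c7, and the pseudogene HNRNPA3P1, with 19.0 in H6c7-Kr and 25 in H6c7.

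**Figure D1:**
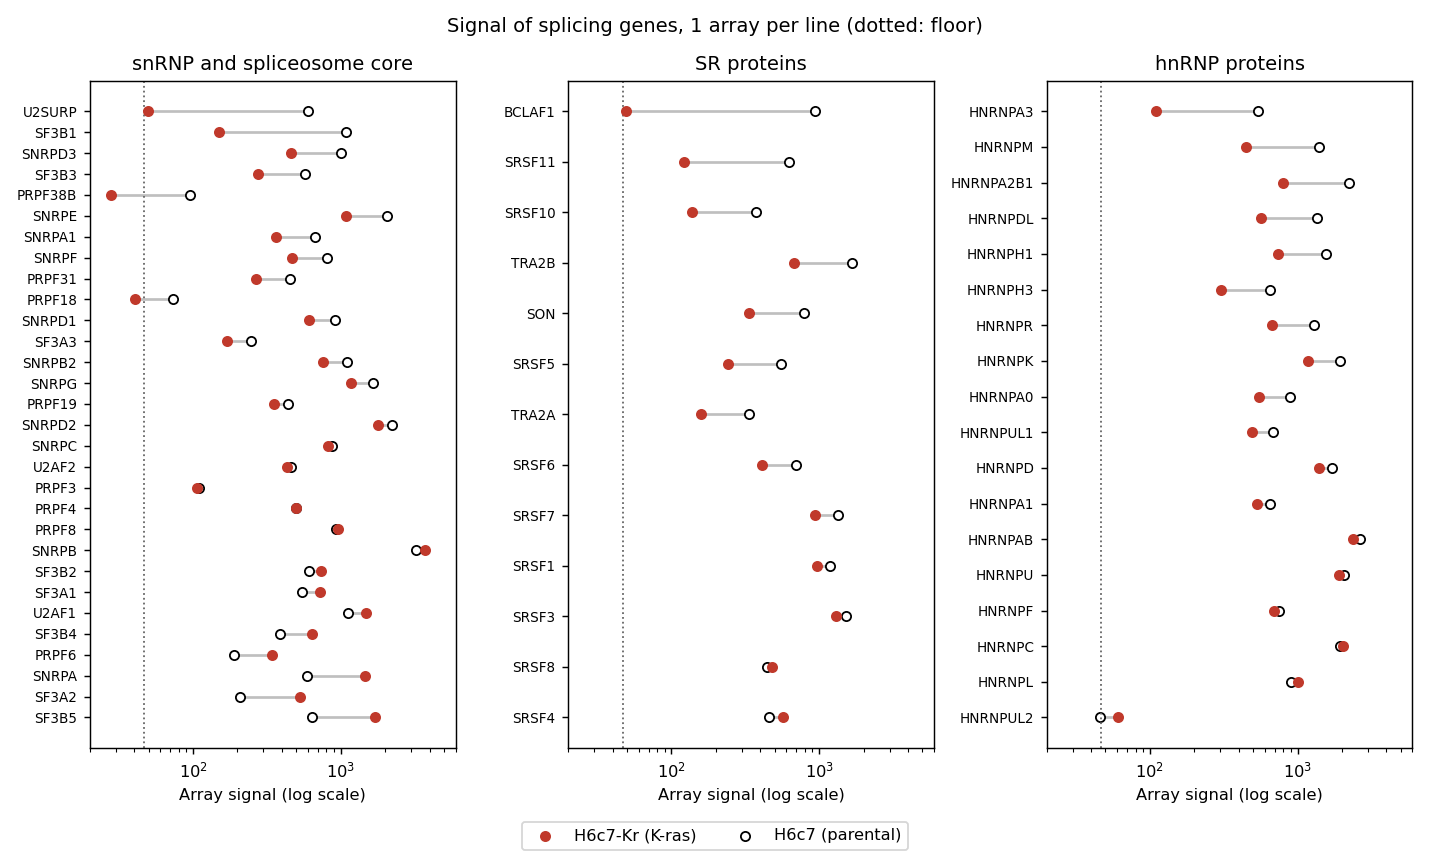
Array signal on a log axis of the 61 measured members, with 1 filled point for H6c7-Kr and 1 open point for H6c7 per gene, ordered within each group from the lowest ratio at the top. Points of BCLAF1 and U2SURP in H6c7-Kr lie at the dotted floor of 46.9, and the 3 members at least 2-fold higher (SF3B5, SF3A2 and SNRPA) are all in the left panel.

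The median log2 ratio differed between the 3 groups. In the SR group (SRSF genes, TRA2A, TRA2B, SON and BCLAF1) 7 of 13 members were lower and 0 higher, with a median log2 ratio of -1.08. In the hnRNP group 6 of 18 measured members were lower and 0 higher, with a median of -0.59. The snRNP and spliceosome core group held the SNRP, SF3A, SF3B and PRPF genes, U2AF1, U2AF2 and U2SURP. Of its 30 measured members 5 (16.7%) were lower and 3 (10%) higher, with a median of -0.30. These shares lay near the 14.4% lower and 9.97% higher of all measured genes. Within it the 11 SF3A, SF3B, U2AF and U2SURP genes had a median of 0.27, with 3 lower and 2 higher. On the log2 scale the SR median minus the core median was -0.78, the SR median minus the hnRNP median was -0.48, and the hnRNP median minus the core median was -0.29. The order of the 3 medians was the same in 10 of 11 alternative settings. It turns with the make-up of the SR group, because the 9 SRSF genes alone had a median of -0.52, above the hnRNP median, while TRA2A, TRA2B, SON and BCLAF1 were all lower. The exception among the settings left out probe sets ending in _x_at and _s_at, which kept 7 SR and 8 hnRNP genes with medians of -0.72 and -0.74.

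**Figure D2:**
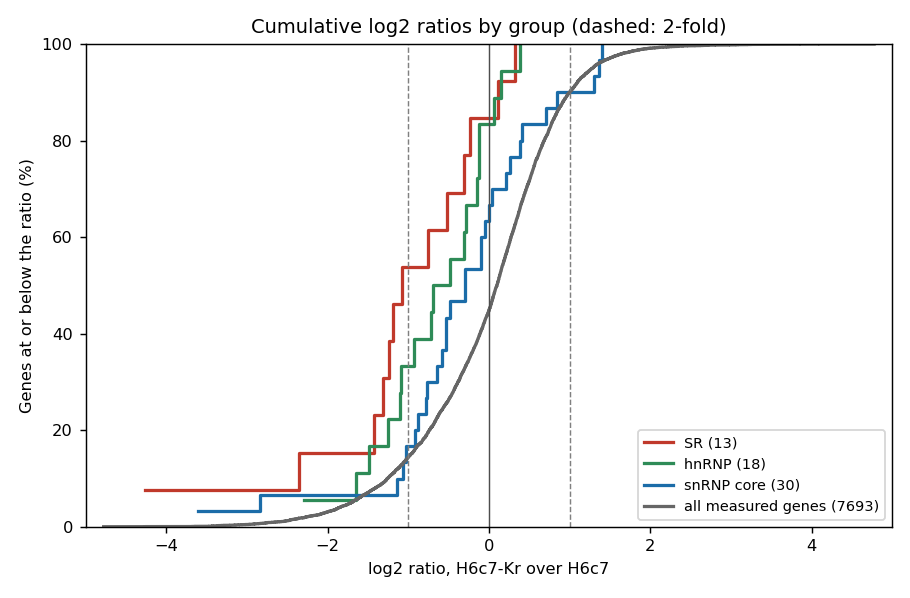
Percentage of genes at or below each log2 ratio of H6c7-Kr over H6c7, for the SR (13 genes), hnRNP (18) and snRNP core (30) groups and for all 7693 measured genes. The SR curve passes 53.8% at the dashed line of 2-fold lower, the hnRNP curve 33.3% and the core curve 16.7%, against 14.4% of all measured genes.

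Factors that recognise the branch point and the 3′ splice site went both ways within single complexes. U2SURP, an arginine-serine-rich protein associated with the U2 snRNP, had a signal of 49.3 in H6c7-Kr and 599 in H6c7, a 12.1-fold lower value. The H6c7-Kr signal lay just above the floor, so this ratio is close to a bound. Its other probe sets read 16.9 and 3.70 in H6c7-Kr, below the floor, against 196 and 120 in H6c7. All 3 probe sets of U2SURP were therefore low in H6c7-Kr.

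SF3b is the part of the U2 snRNP that clamps the branch point, and SF3B1 is its large scaffold subunit. SF3B1 had a signal of 151 in H6c7-Kr and 1084 in H6c7, a 7.17-fold lower value on an uncertain _x_at probe set, a type that can bind related transcripts. The other 3 probe sets of SF3B1 read -2.86, -1.93 and -0.82 as log2 ratios, so all 4 were lower in H6c7-Kr but by unequal amounts. SF3B3, a propeller-shaped subunit that contacts SF3B1, had signals of 275 in H6c7-Kr and 578 in H6c7 (log2 ratio -1.07), and its second probe set gave -0.13. SF3B2, which contacts RNA at the branch site, had 734 in H6c7-Kr and 610 in H6c7, a log2 ratio of 0.27. SF3B4, another subunit that contacts RNA there, had 636 in H6c7-Kr and 388 in H6c7 (0.71, uncertain probe set). SF3B5, a small subunit, had 1701 in H6c7-Kr and 644 in H6c7, 2.64-fold higher. The 5 SF3b genes thus spanned log2 ratios of -2.84 to 1.40, with 2 lower, 1 higher and 2 under 2-fold.

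SF3a, the partner complex that joins SF3b to the U2 snRNP, held no gene at least 2-fold lower. SF3A2 had a signal of 534 in H6c7-Kr and 208 in H6c7, 2.57-fold higher, and its second probe set gave a log2 ratio of 1.68 beside 1.36. SF3A1 had 721 in H6c7-Kr and 551 in H6c7, and its 3 probe sets read 0.39, 0.37 and 0.23. SF3A3 had 170 in H6c7-Kr and 245 in H6c7, a log2 ratio of -0.53. The heterodimer U2AF, which binds the polypyrimidine tract and the AG at the 3′ splice site, was under 2-fold in both subunits. U2AF1 had signals of 1488 in H6c7-Kr and 1123 in H6c7 (log2 ratio 0.41), and U2AF2 had 433 in H6c7-Kr and 464 in H6c7 (-0.10, with a second probe set at 0.33).

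Sequence upstream of the gene start is shown for 4 of the 6 members that were at least 3-fold lower, because these 4 share an E-box, and for the 2 highest members, which have none. The other 2 of the 6, BCLAF1 and SRSF11, have none either. RefSeq promoter sequence of GRCh38.p14 was matched for 56 of the 61 measured members, and the 250 bases before the gene start were searched on both strands. Capitals mark the motifs searched. The E-box was searched as CACGTG, the letters bound by MYC and related factors. The ETS motif, bound by factors many of which act downstream of RAS, was searched as CCGGAAG. The GC box of Sp1-type factors was searched as GGGCGG, and the box of NF-Y as CCAAT. The TATA box was searched as TATAAA. The cyclic AMP response element was searched as TGACGTCA, and a site type of ATF4 with C/EBP partners as TGATGCAA. In the sequences shown no 2 motifs overlap.
U2SURP, chr3:143001320-143001569, plus strand: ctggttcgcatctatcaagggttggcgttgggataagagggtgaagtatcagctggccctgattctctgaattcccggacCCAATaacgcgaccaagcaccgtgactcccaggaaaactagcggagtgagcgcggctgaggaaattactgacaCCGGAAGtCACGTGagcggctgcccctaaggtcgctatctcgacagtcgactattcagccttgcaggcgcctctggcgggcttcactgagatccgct
SF3B1, chr2:197435029-197435278, minus strand: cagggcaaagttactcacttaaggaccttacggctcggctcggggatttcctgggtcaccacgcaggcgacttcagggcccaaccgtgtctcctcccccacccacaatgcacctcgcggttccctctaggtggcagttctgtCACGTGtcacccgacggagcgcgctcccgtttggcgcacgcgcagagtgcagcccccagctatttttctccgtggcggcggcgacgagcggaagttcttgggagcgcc
HNRNPA3, chr2:177212544-177212793, plus strand: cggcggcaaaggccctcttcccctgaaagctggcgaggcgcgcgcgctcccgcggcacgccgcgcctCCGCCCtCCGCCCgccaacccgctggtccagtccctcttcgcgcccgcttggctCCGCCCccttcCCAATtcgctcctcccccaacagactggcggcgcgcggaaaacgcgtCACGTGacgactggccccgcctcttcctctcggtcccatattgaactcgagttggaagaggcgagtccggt
HNRNPM, chr19:8444725-8444974, plus strand: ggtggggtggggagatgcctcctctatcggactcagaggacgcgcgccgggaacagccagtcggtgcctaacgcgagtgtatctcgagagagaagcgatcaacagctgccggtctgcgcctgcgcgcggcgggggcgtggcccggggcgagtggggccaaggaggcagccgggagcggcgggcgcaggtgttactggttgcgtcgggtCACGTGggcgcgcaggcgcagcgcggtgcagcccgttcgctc
SF3B5, chr6:144095574-144095823, minus strand: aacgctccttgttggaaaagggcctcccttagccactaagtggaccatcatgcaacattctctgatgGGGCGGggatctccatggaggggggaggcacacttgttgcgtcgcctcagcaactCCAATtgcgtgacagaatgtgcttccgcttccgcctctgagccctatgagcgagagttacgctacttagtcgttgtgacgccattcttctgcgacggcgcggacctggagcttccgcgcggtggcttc
SF3A2, chr19:2236574-2236823, plus strand: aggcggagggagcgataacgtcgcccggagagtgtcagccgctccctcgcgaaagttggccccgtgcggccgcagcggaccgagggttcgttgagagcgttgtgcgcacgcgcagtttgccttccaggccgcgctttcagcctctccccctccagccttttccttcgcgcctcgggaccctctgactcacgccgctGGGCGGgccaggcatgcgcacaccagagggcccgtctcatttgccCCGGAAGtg

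In U2SURP the E-box begins 89 bases before the gene start and follows an ETS motif at 97 bases. In SF3B1 it begins at 108, in HNRNPA3 at 71 and in HNRNPM at 42 bases before the start. An E-box was present upstream of 6 of 16 members that were at least 2-fold lower and had a sequence, namely these 4, HNRNPDL and HNRNPH3. It was present in 1 of 37 members under 2-fold (HNRNPD) and in 0 of 3 that were higher. Of the 56 members with a sequence 12.5% held it, against 9.19% of all measured genes with a sequence and 6.49% of all 27305 promoters. The ETS motif was present in 2 of 16 lower members (12.5%, U2SURP and SRSF5), 17 of 37 under 2-fold (45.9%) and 1 of 3 higher (SF3A2). Over all 56 members it was present in 35.7%, against 15.8% of measured genes and 8.82% of all promoters. The GC box was present in 55.4% of members and 67.7% of measured genes, and in 6 of 16 lower members. The NF-Y box was present in 42.9% of members, against 36.3% of measured genes, and the TATA box in 10.7%, against 5.80%. Neither the cyclic AMP response element nor the ATF4 motif was found in these windows of the 56 members. Such matches describe letters in a fixed window, and binding of any factor was not measured. The motifs were chosen for known promoter classes, but with earlier results of these data known. Their split by ratio was seen after the search, in small numbers and without a test.

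The Sm proteins, which form the ring around most snRNAs of the spliceosome, were under 2-fold except for SNRPD3. Of 7 ring genes, 6 (85.7%) had a ratio below 1, against 45.4% of all genes detected in both lines, and the median log2 ratio was -0.58. SNRPD3 had a signal of 459 in H6c7-Kr and 1013 in H6c7, 2.20-fold lower, and was the one ring gene past the threshold. SNRPE had 1084 in H6c7-Kr and 2054 in H6c7, a log2 ratio of -0.92. SNRPF had 472 in H6c7-Kr and 808 in H6c7 (-0.78). The second SNRPE probe set gave -0.87. SNRPD1 had a log2 ratio of -0.58 with a second probe set at -1.14. SNRPG had -0.48 and SNRPD2 -0.30. SNRPB, whose product with its longer splice form SmB′ occupies 1 place in the ring, had 3742 in H6c7-Kr and 3223 in H6c7. Its log2 ratio was 0.22, with a second probe set at -0.07. SNRPN was not counted here and has no gene value, since its probe sets carry other symbols too. Those joined to SNURF alone had 1522 in H6c7-Kr and 893 in H6c7 (0.77), and 438 in H6c7-Kr and 303 in H6c7 (0.53). A dimmer one joined to several symbols gave -0.37, and the others were under the floor in H6c7-Kr.

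Among the snRNP-specific proteins the U1 and U2 subunits differed from one another. SNRPA, the U1 protein that binds a stem-loop of U1 RNA, had a signal of 1465 in H6c7-Kr and 596 in H6c7, 2.46-fold higher, measured by 1 probe set. SNRPC, the U1 protein that helps pair U1 with the 5′ splice site, had 819 in H6c7-Kr and 878 in H6c7, a log2 ratio of -0.10. SNRPA1 and SNRPB2 encode the U2 proteins A′ and B″, which bind U2 RNA together. SNRPA1 had 364 in H6c7-Kr and 671 in H6c7 (log2 ratio -0.88), with other probe sets at -0.79 and -0.28. SNRPB2 had 764 in H6c7-Kr and 1103 in H6c7 (-0.53). Over the 11 SNRP genes with a probe set of their own, 1 (9.09%) was lower and 1 (9.09%) higher. Of all measured genes, 14.4% were lower and 9.97% higher. The median of the 11 SNRP genes was -0.53.

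The PRPF genes serve mainly in the particle of U4, U6 and U5 and in the later catalytic complex. Of 8 measured genes 1 (12.5%) was at least 2-fold lower and 0 higher, against 14.4% and 9.97% of all measured genes. Their ratios lay on both sides of 1. PRPF8, the large protein at the catalytic centre, had a signal of 956 in H6c7-Kr and 931 in H6c7. PRPF4 and PRPF3, partners in the U4 and U6 particle, had log2 ratios of -0.004 and -0.05. PRPF6, which bridges that particle to U5, had 341 in H6c7-Kr and 191 in H6c7, a log2 ratio of 0.84 with a second probe set at 0.28. PRPF31, whose mutations are known from inherited retinal degeneration, had -0.77 and -0.58 in 2 probe sets. PRPF19, the ubiquitin ligase of the catalytic complex, had -0.30. The dim PRPF38B had 27.7 in H6c7-Kr and 95.8 in H6c7, so it was at least 2.04-fold lower, and PRPF18, a factor of the second catalytic step, had 40.6 in H6c7-Kr and 73.3 in H6c7, a bound of 1.56-fold lower. The median of the 8 measured PRPF genes was -0.18, and it reached 0.02 when scaled on the maintenance probe sets, so it has no settled sign.

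The SR group held the largest difference of all members. BCLAF1, an arginine-serine-rich protein of nuclear mRNP complexes, had a signal of 48.9 in H6c7-Kr and 937 in H6c7, 19.2-fold lower. Its H6c7-Kr signal was just above the floor. Another probe set read 21.5 in H6c7-Kr and 190 in H6c7, and another 1.3 in H6c7-Kr and 77.6 in H6c7. The last one was under the floor in both lines, at 3.0 in H6c7-Kr and 37.4 in H6c7. All 4 BCLAF1 probe sets were thus dimmer in H6c7-Kr.

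SRSF11, an SR-related protein also called p54, had 122 in H6c7-Kr and 622 in H6c7, 5.11-fold lower. Of its dimmer probe sets, 1 read 17.0 in H6c7-Kr and 61.9 in H6c7 and the other was under the floor in both lines. SRSF10, a splicing repressor when dephosphorylated, had 139 in H6c7-Kr and 371 in H6c7 (log2 ratio -1.42) in the brightest probe set. The next 2 in brightness, both uncertain, gave -0.44 and -0.40. The dimmest had 23.3, under the floor, in H6c7-Kr and 96.8 in H6c7, a bound at -1.05. The 4 probe sets of SRSF10 thus divide evenly over the 2-fold threshold. SRSF5, of a subfamily with SRSF4 and SRSF6, had 243 in H6c7-Kr and 556 in H6c7 (-1.19), and its second probe set gave -1.96.

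The TRA2 pair encodes splicing activators that bind purine-rich exon sequence. TRA2B had a signal of 673 in H6c7-Kr and 1670 in H6c7, 2.48-fold lower, with other probe sets at log2 ratios of -1.40 and -0.56. TRA2A had 159 in H6c7-Kr and 337 in H6c7, 2.11-fold lower in the 1 probe set detected. SON, a large protein of nuclear speckles, had 335 in H6c7-Kr and 791 in H6c7 (log2 ratio -1.24). Its 4 probe sets fell into a bright pair at -1.24 and -1.26 and a dim pair at -0.32 and -0.38.

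The other 6 SRSF genes with a probe set of their own were under 2-fold. SRSF1, a founding SR protein, had a signal of 962 in H6c7-Kr and 1189 in H6c7 (log2 ratio -0.31, with others at -0.59 and -0.67). SRSF3, the smallest of the family, had 1295 in H6c7-Kr and 1520 in H6c7 (-0.23), with a probe set at -0.38 and a dimmer one at -1.13. SRSF7, a close relative of SRSF3, had -0.52, with 3 other probe sets between -0.72 and 0.29. SRSF6 had 409 in H6c7-Kr and 693 in H6c7 (-0.76, and -0.74 in a second). SRSF4 had 571 in H6c7-Kr and 458 in H6c7 (0.32), and SRSF8, an intronless relative of SRSF2, had 479 in H6c7-Kr and 443 in H6c7 (0.11). SRSF2 and SRSF9 have no gene value here, since their probe sets carry a second symbol. The 3 that carry SRSF2 with MIR636 had log2 ratios of -1.76, -1.06 and -0.99, and the 2 that carry SRSF9 with GATC had 0.12 and 0.51. Of the 9 SRSF genes alone, 3 were lower, with a median of -0.52, whereas all 4 other genes of the group, TRA2A, TRA2B, SON and BCLAF1, were lower.

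Among the hnRNPs the A and B type proteins, which bind UAG-containing motifs and often repress exons, diverged. HNRNPA3 had a signal of 109 in H6c7-Kr and 536 in H6c7, 4.90-fold lower, with other probe sets at log2 ratios of -2.98 and -1.01. Probe sets whose annotation joins HNRNPA3 to the pseudogene HNRNPA3P1 were left out of this value. The brightest of them had 475 in H6c7-Kr and 1119 in H6c7 (-1.24). The next had 426 in H6c7-Kr and 854 in H6c7 (-1.003), and the dimmest 122 in H6c7-Kr and 409 in H6c7 (-1.75). The brightest and the next were brighter than the chosen probe set and fell short of 3-fold. HNRNPA2B1 had 791 in H6c7-Kr and 2223 in H6c7, 2.81-fold lower in its 1 probe set. HNRNPA0 had 545 in H6c7-Kr and 883 in H6c7 (-0.70), with a second probe set at 0.29. HNRNPA1 had 532 in H6c7-Kr and 649 in H6c7 (-0.29) on an uncertain probe set, and the gene has many processed copies. Of the brighter probe sets whose annotation joins HNRNPA1 to such copies, 1 had 3385 in H6c7-Kr and 5580 in H6c7 (-0.72) and 1 had 4005 in H6c7-Kr and 5649 in H6c7 (-0.50). HNRNPAB had 2382 in H6c7-Kr and 2650 in H6c7, a log2 ratio of -0.15.

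HNRNPM, which antagonises epithelial splicing regulators at shared exons, had 446 in H6c7-Kr and 1398 in H6c7, 3.13-fold lower in the 1 probe set detected. The H and F proteins bind runs of G. HNRNPH1 had 732 in H6c7-Kr and 1569 in H6c7 (log2 ratio -1.10), with others at -1.65 and -1.13. HNRNPH3 had 304 in H6c7-Kr and 648 in H6c7 (-1.09) on an uncertain probe set, and its 3 dimmer probe sets gave -1.34, -1.71 and -2.62. HNRNPF had 692 in H6c7-Kr and 753 in H6c7, a log2 ratio of -0.12. Each detected probe set of HNRNPH1 and of HNRNPH3 was at least 2-fold lower, and that of HNRNPF was under 2-fold.

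HNRNPD, known as AUF1 for its binding to AU-rich elements, had a signal of 1391 in H6c7-Kr and 1718 in H6c7 (-0.30), and its relative HNRNPDL had 568 in H6c7-Kr and 1354 in H6c7 (-1.25), both on uncertain probe sets. Other HNRNPD probe sets gave -0.23, -0.74 and -1.37. Other HNRNPDL probe sets gave -1.31, -1.33 and -0.79. HNRNPK, which binds C-rich sequence, had 1175 in H6c7-Kr and 1941 in H6c7 (-0.72), with a second probe set at -1.43. HNRNPR had 674 in H6c7-Kr and 1285 in H6c7 (-0.93), with a second at -0.23.

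HNRNPC, HNRNPU, HNRNPL and the HNRNPU relatives were under 2-fold. HNRNPC, which coats pre-mRNA as a tetramer and binds U-rich tracts, had a signal of 2042 in H6c7-Kr and 1948 in H6c7 on an uncertain probe set, and log2 ratios of the 4 available ones lay between -0.43 and 0.07. HNRNPU, a nuclear scaffold protein, had 1901 in H6c7-Kr and 2072 in H6c7 (-0.12, others at 0.06 and -0.31). HNRNPL, which binds CA repeats, had 1000.3 in H6c7-Kr and 905 in H6c7 (0.14, and -0.22 in a second). Of the HNRNPU relatives, HNRNPUL1 had 488 in H6c7-Kr and 685 in H6c7 (-0.49) in the brighter probe set and 0.67 in the other. HNRNPUL2 had 61.2 in H6c7-Kr and 45.9, under the floor, in H6c7, a bound of 1.30-fold higher.

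Values near the threshold show how little separates the calls. Just past 2-fold were PRPF38B, SF3B3 and TRA2A, with log2 ratios of -1.03, -1.07 and -1.08. Just short of it were HNRNPR, SNRPE and SNRPA1, with -0.93, -0.92 and -0.88.

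Probe sets of 1 gene were the repeat measurement at hand, and it is technical. Of the 141 member probe sets, 114 were detected in both lines, and 33 members had at least 2 such probe sets, 89 in all. Between probe sets of the same gene, log2 ratios had a pooled SD of 0.50 in these members, against 0.46 over 1671 such genes of the whole array. Probe sets differed by a log2 ratio of at least 1 in 7 of the 33 members (21.2%), against 15.6% of all such genes. These were SF3B1 (range 2.04), HNRNPA3 (1.97), HNRNPH3 (1.52), HNRNPUL1 (1.16), HNRNPD (1.14), SRSF10 (1.02) and SRSF7 (1.01). All probe sets had the same sign in 24 of the 33 (72.7%), against 73.7% of all such genes. Of the 9 with mixed signs none was called lower or higher.

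The choice of probe set decided the call in 10 of the 33 members (30.3%), against 25% of all such genes. Of 10 lower members with another probe set detected in both lines, all 10 had the same sign throughout, but in 4 every probe set was at least 2-fold lower (HNRNPA3, HNRNPH1, HNRNPH3 and SRSF5). In the other 6 at least 1 probe set was under 2-fold (SF3B1, SF3B3, SRSF10, TRA2B, SON and HNRNPDL). Conversely, 4 of 22 members under 2-fold had another probe set at least 2-fold lower (SNRPD1, SRSF3, HNRNPD and HNRNPK), and 0 of 22 had one at least 2-fold higher. SF3A2 was the one higher member with a second probe set, which was also higher. The dimmest probe set had the lower ratio in 15 of the 33 members (45.5%), against 47.8% of all such genes, so the disagreement had no common direction with brightness. By group, the pooled SD was 0.44 in SR, 0.53 in hnRNP and 0.51 in core genes.

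**Figure D3:**
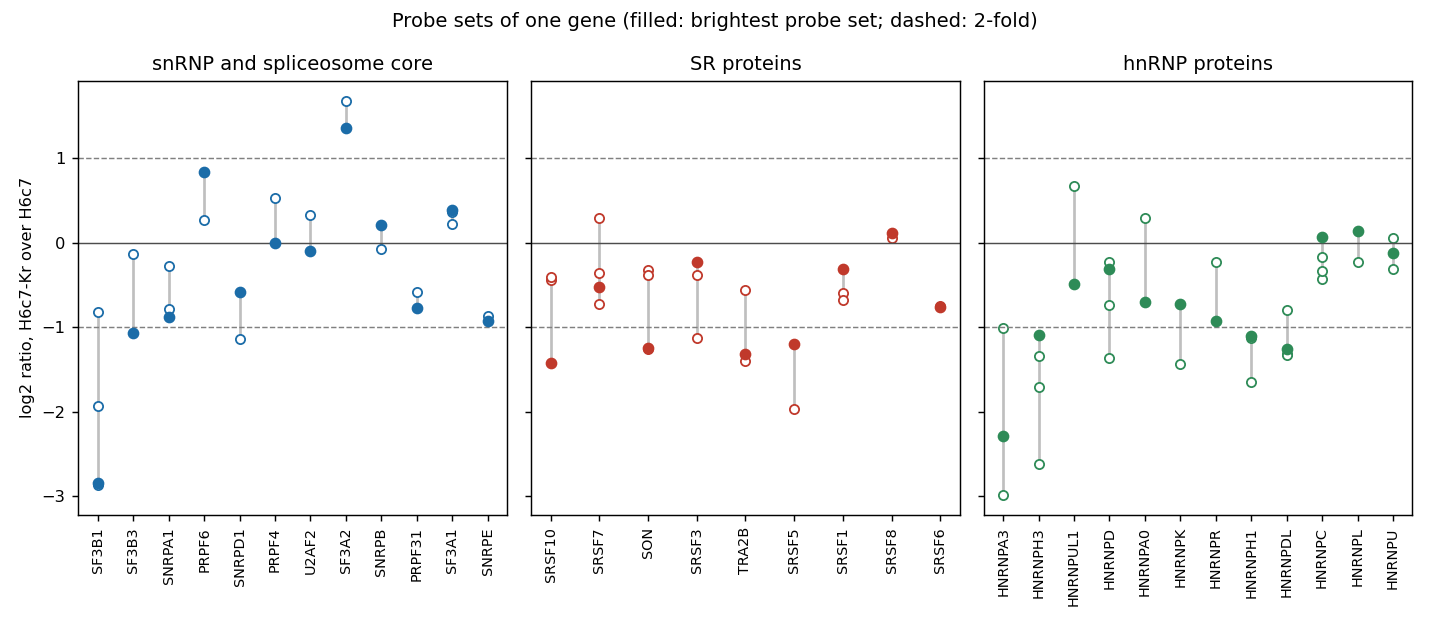
Log2 ratio of H6c7-Kr over H6c7 for each probe set detected in both lines, in the 33 members with at least 2 of them, ordered by range within each group; the filled point is the brightest probe set. SF3B1 and HNRNPA3 have the widest ranges (2.04 and 1.97), and in HNRNPA3, HNRNPH1, HNRNPH3 and SRSF5 every point is at or below the dashed line of 2-fold lower.

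The share of members called lower was higher in longer span classes, but their median ratios did not follow span in order. Pearson's r between log2 genomic span and log2 ratio was -0.34 over the 61 measured members and -0.22 over 7690 genes, values across genes of the same arrays and no test. Spearman's rho over the members was -0.17, and without BCLAF1 and U2SURP Pearson's r was -0.27 and rho -0.11. Within the groups r was -0.46 in core genes, -0.44 in SR genes and 0.08 in hnRNP genes. Members over 20 kb were lower in 10 of 23 cases (43.5%), against 18.6% of all measured genes over 20 kb. Between 10 and 20 kb 6 of 24 members (25%) were lower, against 10.8%, and under 10 kb 2 of 14 (14.3%), against 5.11%. The members' median log2 ratio was -0.41 under 10 kb, -0.30 between 10 and 20 kb and -0.64 over 20 kb. Medians of all measured genes in these classes were 0.34, 0.26 and -0.07. The share of lower members was above that of other measured genes in each span class. The part of span in the lower values was not tested.

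**Figure D4:**
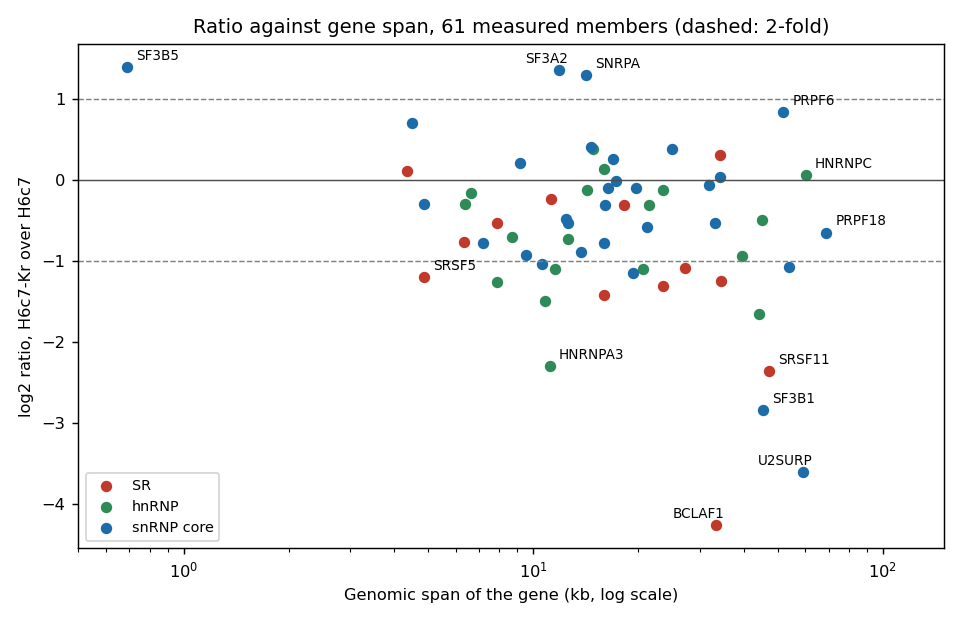
Log2 ratio of H6c7-Kr over H6c7 against the genomic span of the gene in kb on a log axis, for the 61 measured members coloured by group. BCLAF1, U2SURP, SF3B1 and SRSF11 lie low at spans over 20 kb, while the short SF3B5 (0.690 kb) has the highest ratio; HNRNPC and PRPF6, at 60.3 and 52.0 kb, are not lower.

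In 6 further lists, 100 splicing genes outside the symbol rule were measured. At least 2-fold lower were 19 (19.0%), against 14.4% of all measured genes, and 7 (7.0%) were higher, against 9.97%. Their median log2 ratio was -0.19, and the medians of the 6 lists ran from -0.67 to 0.15. Of 29 other snRNP proteins, 5 were lower and 2 higher (median -0.02). DDX46, the helicase that works with the U2 snRNP, had a signal of 147 in H6c7-Kr and 716 in H6c7, 4.86-fold lower. Next by size were LUC7L3 (at least 3.96-fold lower), LSM3 (2.80-fold lower) and LUC7L (2.53-fold higher, uncertain probe set). SART1, of the particle of U4, U6 and U5, was also 2.53-fold higher. Of 14 helicases and catalytic step factors 5 were lower and 1 higher (median -0.32). Among these BCAS2, a core protein of the PRPF19 complex, had 80.4 in H6c7-Kr and 414 in H6c7, 5.14-fold lower, and DHX15, which takes the spliceosome apart, was 4.82-fold lower with a second probe set at a log2 ratio of -2.76. XAB2, of the catalytic complex, was at least 3.44-fold higher.

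Of 11 kinases and coactivators of SR proteins, 2 were lower and 2 higher (median 0.15). The SR protein kinases SRPK1 and SRPK2 were 3.42-fold and 3.05-fold lower, but other probe sets gave log2 ratios of -0.64 for SRPK1 and of -0.15 and 0.31 for SRPK2. CLK3, another SR protein kinase, was 2.03-fold higher. PNN, a nuclear speckle protein, was 3.20-fold higher on an uncertain probe set, with a second probe set at -2.15, so its direction is unsettled. Of 4 exon junction complex and decay genes none passed 2-fold (median -0.67), and UPF1, the helicase of nonsense-mediated decay, had a log2 ratio of 0.97 with a second probe set at -0.04. Of 31 other RNA-binding regulators, 6 were lower and 2 higher (median -0.14). The muscleblind protein MBNL1 had 68.0 in H6c7-Kr and 489 in H6c7, 7.19-fold lower, and RBFOX2 was 4.04-fold higher on an uncertain probe set, with others at 0.16 and 1.71. Of 11 snRNP assembly genes 1 was lower, GEMIN6 of the SMN complex at 3.59-fold, and 0 higher (median -0.44).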

How the data were processed

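The deposited table gives the authors' intensity per probe set on a linear scale for 2 Affymetrix arrays, 1 per line. The software behind these values is not stated in the sources at hand. Per the labels' protocols, RNA was extracted with phenol and chloroform, purified on columns and converted to cRNA. Trimmed means (2% off each end) were 150.06 in both columns, so values were taken as already scaled and were rescaled to a common trimmed mean. Genes were named by the platform annotation, which gives 19065 probe sets 1 symbol, 1043 several and 2175 none or a control. All 63 members matched the GRCh38.p14 gene table by gene number. The probe set with the highest mean log2 signal stands for a gene. Named genes are, per group, the 8 largest and 2 smallest ratios, members with probe sets differing by a log2 ratio of 1 or more, and those nearest the threshold. The other members and the splicing genes of further lists were added to account for all. So were probe sets joining SRSF2, SRSF9, SNRPN, HNRNPA1 or HNRNPA3 to other symbols, chosen after their values were seen. Members, lists and motifs were chosen with earlier results of these data known. The procedure was tested on simulated arrays, in which only changes well past 2-fold were put into genes well above the floor. Calls near 2-fold or near the floor were not tested in this way. Scripts ran in Python 3.11.15 with pandas 2.3.3, statsmodels 0.14.6 for the loess curve, numpy 2.4.6, matplotlib 3.10.9 and, for trimmed means, scipy 1.17.1. Precision is limited by having 1 array per line.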

Additional observations from a re-analysis of the deposited data

How the results depend on the processing

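No paired analysis was possible because each line has 1 array. The 18 lower members became 11 when scaled on 100 maintenance probe sets, 10 of 34 measured without _x_at and _s_at probe sets, and 6 at 3-fold. Of all measured genes 14.4% were lower with the processing used, and 11.1%, 15.5% and 6.24% in those settings. The other 9 settings gave 14 to 20, with 10.9% to 16.2% of all measured genes lower. The count of higher members was 3, ranged from 2 to 4 over the 11 other settings and was 0 at 3-fold. The share of all measured genes that were higher was 9.97%, ran from 6.1% to 20.3% over those 11 and was 2.40% at 3-fold. Beside the scaling and the probe sets named above, the settings were the median over probe sets, a pseudocount equal to the floor, dropping the floor, moving it to the 70th or the 30th percentile, a loess curve, median centring, quantile normalization and unscaled deposited values. Scaling on maintenance probe sets put the median log2 ratio of all genes at 0.24 in place of 0.10. The members' median minus that of all genes was -0.57 there and -0.62 in the scaling used, and -0.78 to -0.55 over the 11 settings. Group medians ranged from -1.17 to -0.72 for SR, from -0.74 to -0.40 for hnRNP and from -0.39 to -0.10 for core genes. Of 368 recomputed values of 35 named genes, 350 moved by less than the probe set SD of 0.46, 18 by more, and 0 called values changed sign. BCLAF1 and U2SURP, at the floor in H6c7-Kr, gave -2.02 and -2.06 with the median over probe sets.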

Other observations

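Probe sets annotated with several symbols, at least 1 of them fitting the symbol rule, were left out of the gene values. There were 19 of them, 15 above the floor on both arrays. Their log2 ratios of H6c7-Kr over H6c7 ranged from -1.76 to 0.77, with a median of -0.72.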
